A study of Drosophila melanogaster with 6 samples.

Results

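The genes described here are 51 genes of *Drosophila melanogaster* that handle metals or defend against oxidation. They were taken by name from a list of metal transport, metal binding and antioxidant genes, and they make up 51 of the 17807 annotated genes on the chromosomes considered. A gene counted as carrying a peak in a library when a peak overlapped the gene or the 1 kb on either side of it. Where peaks are said to lie inside a neighbouring gene, they overlap it by at least 1 bp and may extend beyond it. The assay was MeDIP-seq: sonicated genomic DNA is immunoprecipitated with an antibody to 5-methylcytosine, and the recovered DNA and an untouched input are sequenced. The lead group consisted of 3 libraries labelled F3-800um and the control group of 3 libraries labelled F3-0um. All were made from adult heads of flies of the genotype WT. The labels give no strain name, sex or age, no meaning of F3, and no statement that replicates came from separate flies, so any p-value measures only the spread between these libraries, which may be technical. Peaks of recovered DNA give no check of the tissue.

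Lead is known to occupy protein sites built for zinc or calcium, to bind thiols and to raise oxidative stress. Flies meet excess metal with metallothioneins, small cysteine-rich proteins switched on by the zinc-finger factor MTF-1, and with transporters that move zinc, copper, iron and manganese across membranes. Oxidants are removed by superoxide dismutases, catalase, peroxiredoxins and the glutathione and thioredoxin systems, whose genes are controlled in part by cnc, the fly counterpart of Nrf2, and its inhibitor Keap1. Cytosine methylation is very sparse in this species, and a peak of antibody-enriched DNA does not by itself show methylation.

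The peak lists held 3522, 1379 and 2536 peaks in lead replicates 1, 2 and 3, and 1746, 2414 and 2157 peaks in control replicates 1, 2 and 3. Of all annotated genes, 10.3%, 4.79% and 7.91% had a peak by this rule in the lead libraries, and 6.07%, 7.41% and 7.02% in the control libraries. Lead replicate 1 therefore reached the most genes and lead replicate 2 the fewest. Read depth per library is unknown here, so a gene without a peak is not shown to be unmethylated.

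Most of the 51 genes carried no peak in any library. A peak was found at 9 of them in at least 1 library (12.2% of all 17807 genes, or 2173 genes, had one). They were the transporter genes ZnT77C and Zip99C, the glutathione genes Gclc and GstD1, and the repair gene SelR. The others were DJ-1alpha, the NADPH-producing enzyme gene Zw, and the regulators cnc and foxo. A peak in all 6 libraries was found at none of the 51 and at 3.69% of all genes, a share too small for 0 of 51 to stand out. The gene nearest to that was SelR, with 5 libraries; 5.00% of all genes had a peak in 5 or more.

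**Figure D1:**
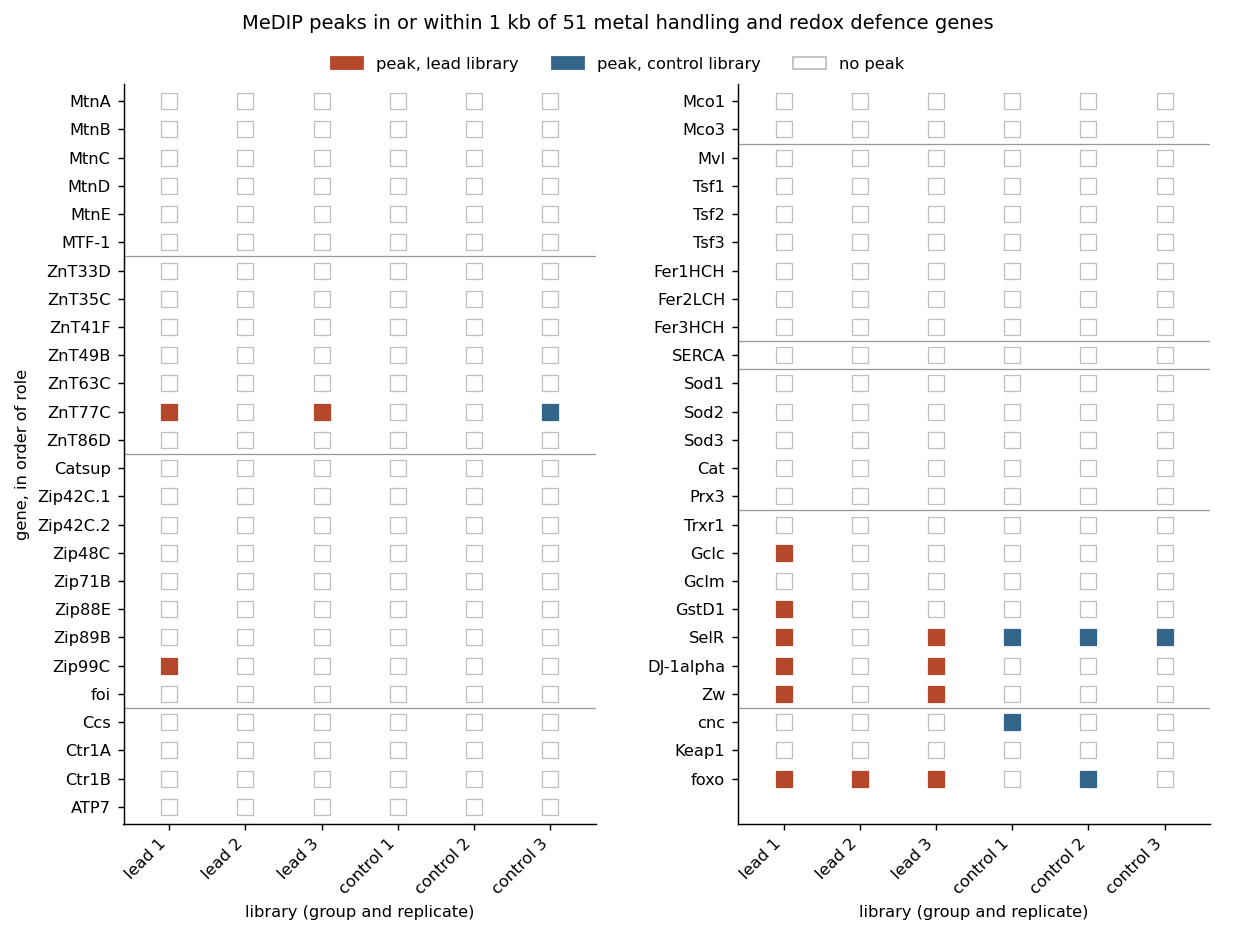
Filled squares mark a peak in or within 1 kb of a gene (rows, in order of role, separated by lines) in each of the 3 lead and 3 control libraries (columns). Of the 51 genes 9 have a filled square, and lead replicate 1 holds 8 of them.

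Of the 15 redox defence genes, 7 had a peak in at least 1 library, as did 2 of the 36 metal handling genes and 12.2% of all genes. DJ-1alpha is 1 of the 7 and counted only through 24 and 6 bases at the 1 kb limit. Among further genes of these pathways, listed beside the 51, a peak was found at 6 of 37 redox genes (16.2%), 2 of 34 glutathione transferase genes (5.88%) and 2 of 12 metal genes (16.7%). Redox genes are longer, with a median span of 5102 bp against 2860 bp, and long genes carried peaks more often in general. Among genes of 10 kb or more a peak was found at 3 of 3 redox genes (Gclc, cnc and foxo). It was found at 1 of 4 metal genes (ZnT77C, not ZnT35C, ZnT63C or SERCA), where 53.0% of all such genes had one. Gclc counted through a peak 906 bp outside the gene in lead replicate 1 alone, and cnc through control replicate 1 alone. Among shorter genes the counts were 4 of 12 redox genes and 1 of 32 metal genes, where 6.93% of all genes under 10 kb had a peak. Over both classes, 3 of 25 genes of 2 to 10 kb had a peak (10.8% of all genes of that size), and 2 of 19 genes under 2 kb (4.7% of all genes of that size). The part of span in the difference between both classes was not tested further.

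Counted by library, 8, 1 and 5 of the 51 genes had a peak in lead replicates 1, 2 and 3, and 2 genes had one in each control library. The mean was 4.67 ± 3.51 genes in lead and 2.0 ± 0.0 genes in control libraries (SD, n = 3 each), a difference of 2.67 genes, which is smaller than the spread among the lead libraries. The lead libraries lay on both sides of the control libraries, in the order of their numbers of peaks. Peaks covered 1864, 234 and 1056 bases of the 51 gene windows in the lead libraries, and 515, 586 and 490 bases in the control libraries. Without lead replicate 1 the differences between the group means were 1.0 gene and 114.7 bases. Without lead replicate 2 they were 4.5 genes and 929.7 bases. When every list was cut to its 1379 highest-scoring peaks, 3, 1 and 4 genes had a peak in lead replicates 1, 2 and 3, and 1, 2 and 1 genes in control replicates 1, 2 and 3, a difference of 1.33 genes and 231.3 bases. With gene spans alone the differences were 1.33 genes and 334.3 bases.

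**Figure D2:**
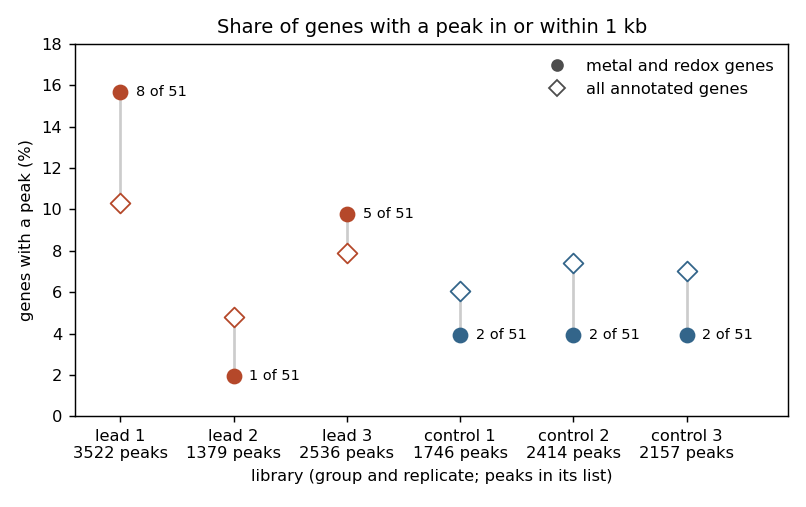
Filled circles give the percentage of the 51 metal and redox genes with a peak in each library, with the number of genes beside them, and open diamonds the percentage of all annotated genes; lead libraries stand left of control libraries. The circles lie above the diamonds in lead replicates 1 and 3 (8 and 5 genes) and below them in lead replicate 2 (1 gene) and in the 3 control libraries (2 genes each).

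More lead than control libraries had a peak at 7 of the 51 genes (4.34% of all genes): ZnT77C, Zip99C, Gclc, GstD1, DJ-1alpha, Zw and foxo. Fewer lead than control libraries had one at 2 genes, SelR and cnc (2.27% of all genes). DJ-1alpha is 1 of the 7 only through 24 and 6 bases at the 1 kb limit. By merged regions, a way of counting chosen after the values were seen, the count of 7 was 6. With a library left out, the groups were compared by the share of their libraries with a peak. The count of 7 was then 4 without lead replicate 1. Zip99C, Gclc and GstD1 had a peak in that library alone, as 1.80% of all genes did. By number of libraries, ZnT77C was then tied, at 1 lead and 1 control library. The count of 2, again by share, was 1 without lead replicate 2 and 1 without control replicate 1. By number of libraries, SelR was marked in 2 lead and 3 control libraries without lead replicate 2. It was marked in 2 and 2 without control replicate 1. A full split, with every lead library and no control library marked, occurred at none of the 51 genes (0.0618% of all genes), and the opposite split at none either (0.00562% of all genes).

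No single gene could pass a test of lead against control at 0.05, since 3 against 3 libraries allow no p below 0.1. Fisher's exact test on libraries with a peak, run over the 2173 genes with a peak, had a smallest two-sided p of 0.1, the least that 3 against 3 libraries allow, and the smallest adjusted p was 1 (Benjamini-Hochberg). The exact permutation test of the bases under peaks (20 assignments, two-sided) also had a smallest p of 0.1, again the least possible. That no gene had an unadjusted p under 0.05 in either test was therefore fixed in advance. Among the 51 genes the smallest unadjusted p was 0.4 by Fisher's exact test and 0.3 by the exact permutation test.

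The metallothionein genes MtnA, MtnB, MtnC, MtnD and MtnE, whose products bind copper, zinc and cadmium, had no peak in any library. Their spans are short, from 327 bp for MtnC to 964 bp for MtnA, and all lie on 3R. The nearest peak of any library was 52996 bp from MtnA, 15848 bp from MtnB, 14563 bp from MtnC, 15080 bp from MtnD and 14139 bp from MtnE. For MtnA the distance hardly varied, at 53186, 52996 and 53218 bp in the lead libraries and 53215, 53243 and 53016 bp in the control libraries. For MtnE it was 14159, 76796 and 14139 bp in the lead libraries, and 76801, 14196 and 14141 bp in the control libraries, so the near peak was missing in 1 library of each group. MTF-1, which activates these genes under metal load, spans 9179 bp on 3L and its nearest peak lay 22499 bp away.

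In general, zinc is carried out of the cytosol by ZnT proteins and into it by ZIP proteins. The genes are grouped here by family, not by the metal or direction of transport of each member. Of the 7 ZnT genes, ZnT77C alone had a peak. It lay on 3L at 20493740 to 20494003 (dm6), with its upper edge 0.918 kb below the upper end of the gene, and inside the overlapping gene ND-39, which encodes a subunit of respiratory complex I. Peaks there covered 251, 0 and 250 bases in lead replicates 1, 2 and 3, and 0, 0 and 234 bases in control replicates 1, 2 and 3. The groups overlapped (means 167 and 78.0 bases in lead and control libraries, exact permutation p = 0.4, adjusted p = 1). Each peak stood low in its own list by the authors' score, above 29.4% and 21.6% of the peaks of lead replicates 1 and 3 and above 6.26% of those of control replicate 3. By contrast, a second region at 20497702 to 20498046, 2781 bp above the gene and inside CG32425, had a peak in all 3 lead and all 3 control libraries, and there the peaks stood above 78.8% to 96.2% of their lists.

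The other ZnT genes (ZnT33D, ZnT35C, ZnT41F, ZnT49B, ZnT63C and ZnT86D) had none, and their nearest peaks lay between 5333 bp for ZnT35C and 74325 bp for ZnT49B. Among the 9 ZIP genes, Zip99C had a peak in lead replicate 1 and in no other library. That peak lay outside the gene, on 3R at 29869482 to 29869707, 587 bp above its upper end and inside the neighbouring gene CG34133. In the other 5 libraries the nearest peak to Zip99C was at least 113858 bp away. Catsup, Zip42C.1, Zip42C.2, Zip48C, Zip71B, Zip88E, Zip89B and foi, a ZIP protein named for its role in gonad formation, had no peak. Zip42C.2 came closest, with a peak 3788 bp away in control replicate 2, inside hlk.

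None of the genes listed among the 51 under copper, iron, manganese or calcium carried a peak. For copper these were the importers Ctr1A and Ctr1B, the export pump ATP7 and Ccs, the chaperone that loads copper into Sod1; the multicopper oxidases Mco1 and Mco3 had none either. Ccs had a region 4629 bp above it, on 2R at 10127203 to 10127546 inside gem and CG46319, with a peak in all 6 libraries. The distance to Ctr1A was as steady, at 18184, 18228 and 18189 bp in the lead libraries and 18203, 18197 and 18160 bp in the control libraries. For iron and manganese, the metal transporter gene Mvl, the transferrins Tsf1, Tsf2 and Tsf3, and the ferritin chains Fer1HCH, Fer2LCH and Fer3HCH had none. Within 5 kb of these there was only a peak of lead replicate 1, 3870 bp from Fer3HCH, the mitochondrial ferritin, inside Chpf. SERCA, the calcium pump of the endoplasmic reticulum, spans 10808 bp, and its nearest peak lay 49224 bp away. PMCA, the calcium pump of the plasma membrane and not one of the 51, had a peak in lead replicate 1 alone (238 bases). Of all genes, 1.80% had a peak in that library alone. Ho, a further metal handling gene and also not one of the 51, had a peak in 2 lead libraries and 1 control library. Both are named here after their values were seen.

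**Figure D3:**
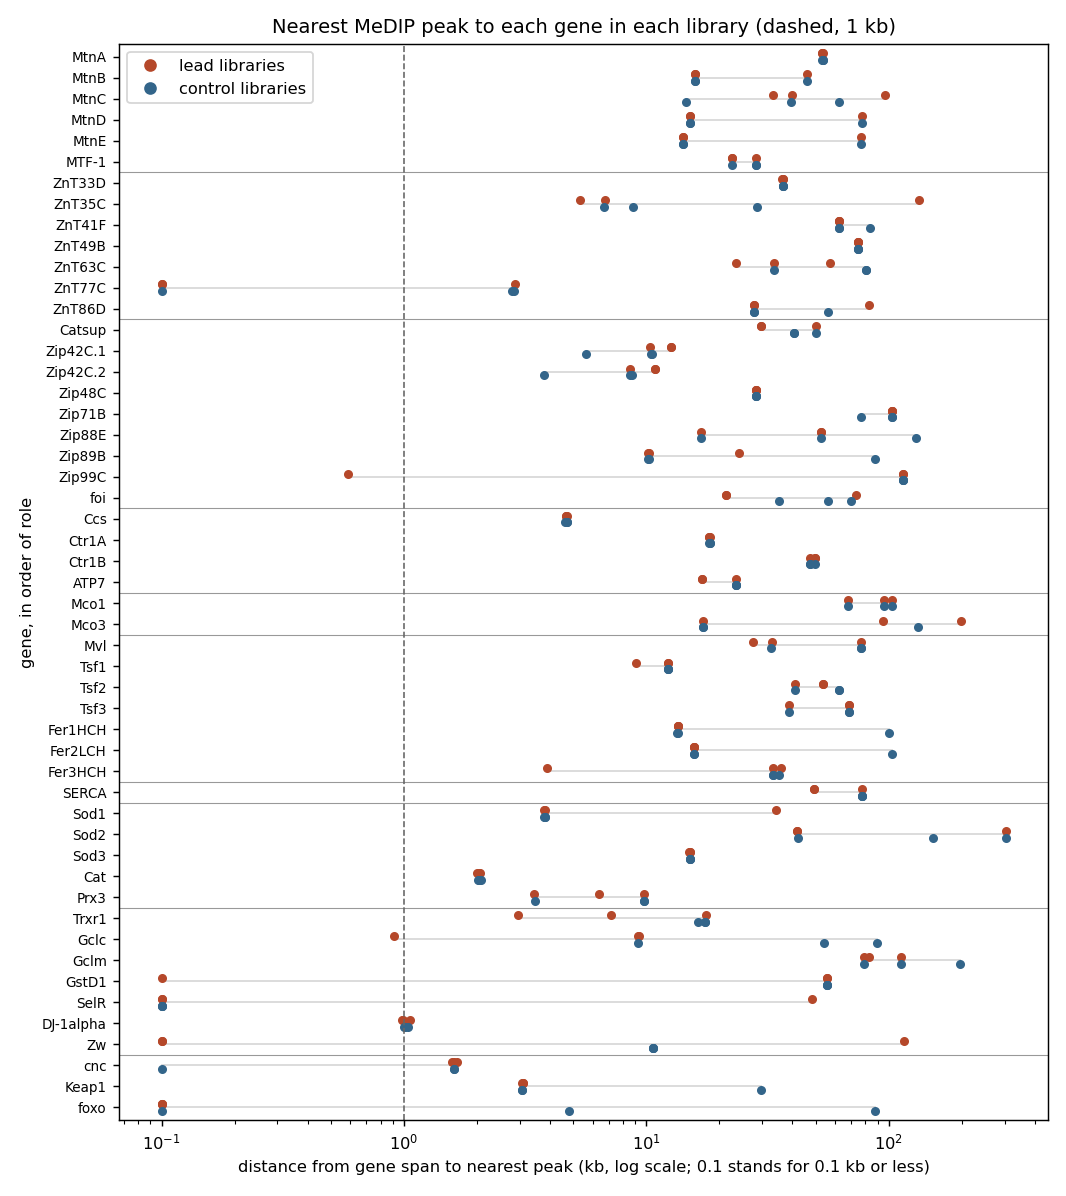
Each row is a gene, in order of role, and each point gives the distance from the gene to the nearest peak in 1 library (kb, log axis), with the 3 lead libraries drawn above the 3 control libraries; points at 0.1 stand for 0.1 kb or less. Points left of the dashed line at 1 kb mark genes with a peak, and for genes such as MtnA, Ccs, Ctr1A and Cat all 6 libraries have nearly the same distance.

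Enzymes that remove superoxide and peroxide had no peak in any library. Sod1 and Sod2, the cytosolic and mitochondrial superoxide dismutases, Sod3, the extracellular one, the catalase gene Cat and the mitochondrial peroxiredoxin gene Prx3 all lacked one. Cat was flanked below its lower end by 2 regions with a peak in all 6 libraries, on 3L at 18820271 to 18820604 and at 18819514 to 18819833, both inside CG14073. The nearer one lay 2049, 2044 and 2000 bp from Cat in the lead libraries and 2080, 2046 and 2022 bp in the control libraries. Sod1 had a region 3781 bp above it, on 3L at 11117521 to 11118068 inside FoxK, with a peak in 2 lead libraries (replicates 1 and 3) and all 3 control libraries. Near Prx3 a region lay 3441 bp away. Only lead replicate 2 lacked the region near Sod1, while the region near Prx3 was found in lead replicate 3 and control replicate 3 alone.

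SelR, which encodes a methionine sulfoxide reductase that repairs oxidized protein, had a peak in the most libraries. It lay on 3R at 10863930 to 10864280, in the gene between 0.575 and 0.925 kb from its lower end. Peaks covered 257, 0 and 313 bases in lead replicates 1, 2 and 3, and 271, 318 and 256 bases in control replicates 1, 2 and 3. The 5 peaks had 224 bp in common, and stood above 64.2% and 77.5% of their lists in lead replicates 1 and 3 and above 73.1%, 59.9% and 82.5% in control replicates 1, 2 and 3. Lead replicate 2 was the exception, with its nearest peak 48215 bp away. Mean coverage was 190 bases in lead and 282 bases in control libraries (exact permutation p = 0.5, adjusted p = 1). Without lead replicate 2, SelR had a peak in all libraries. A peak in lead replicates 1 and 3 and all 3 control libraries, with none in lead replicate 2, was found at 0.769% of all genes.

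Zw encodes glucose-6-phosphate dehydrogenase, the entry enzyme of the pentose phosphate pathway and a main source of NADPH for glutathione and thioredoxin. Its peak was on X at 19667873 to 19668393, in the gene from 0.621 kb above its lower end. Peaks covered 501, 0 and 227 bases in lead replicates 1, 2 and 3, and 0 bases in each of the 3 control libraries. The groups still overlapped at 0, since lead replicate 2 had no peak (means 243 and 0 bases, exact permutation p = 0.4, Fisher's exact p = 0.4, adjusted p = 1 for both). In the control libraries the nearest peaks were 10592, 10625 and 10619 bp away, and in lead replicate 2 the nearest was 115733 bp away. Both Zw peaks stood near the middle of their lists, above 54.1% and 51.2% of the peaks. A peak in lead replicates 1 and 3 alone was found at 67 genes, 0.376% of all genes.

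DJ-1alpha, a fly homologue of the human Parkinson's disease gene PARK7, was marked in lead replicates 1 and 3 alone, but the same peak was present in all 6. It lay on 2R at 13941160 to 13941557, inside shot, a gene for a large cytoskeletal linker. The distance between this peak and DJ-1alpha was 977, 1059 and 995 bp in lead replicates 1, 2 and 3, and 1037, 1001 and 1009 bp in control replicates 1, 2 and 3. The 1 kb limit thus fell among peaks that share 203 bp, and admitted 24 and 6 bases of those in lead replicates 1 and 3. Counted by merged region, DJ-1alpha was marked in all 6 libraries; this way of counting was chosen after the values were seen. Any pair of lead libraries and no control library was marked at 0.427% of all genes.

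**Figure D4:**
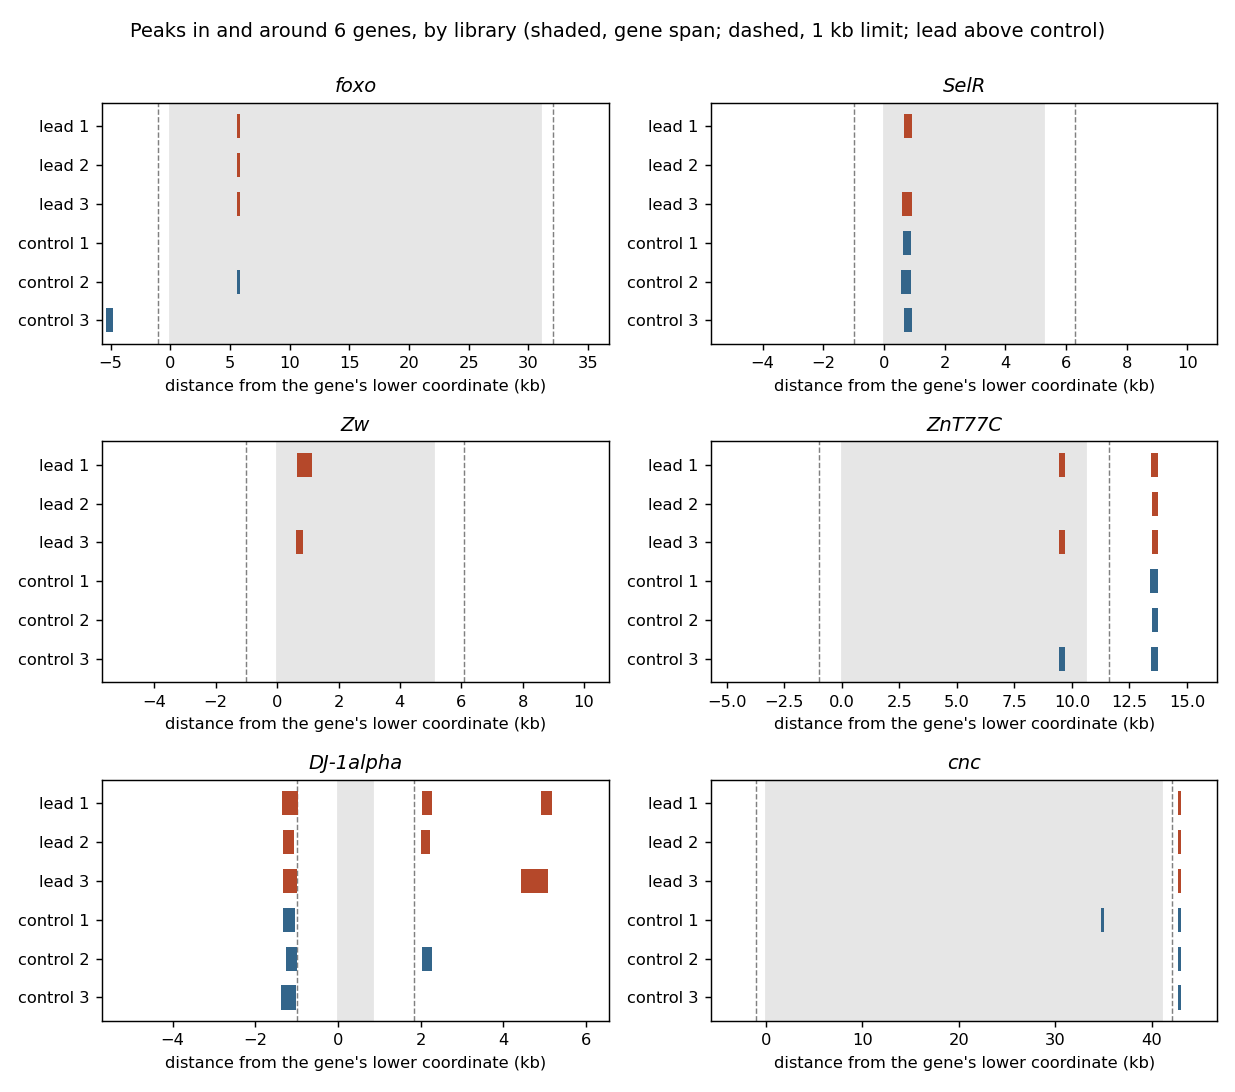
Bars mark the peaks of each library (rows, lead above control) against the distance from the lower coordinate of 6 genes (kb), with the gene span shaded and the 1 kb limit dashed. The peaks in foxo, SelR and Zw recur at the same place, the peak below DJ-1alpha is present in all 6 libraries at the limit itself, and the regions above ZnT77C and cnc are present in all 6 libraries outside it.

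The remaining genes of the glutathione and thioredoxin systems had a peak in lead replicate 1 or in no library. GstD1, a glutathione transferase, had one on 3R at 12369261 to 12369477 that overlapped its upper end, above 61.3% of the peaks of that list. Gclc, the catalytic subunit of the enzyme that makes the precursor of glutathione, had one on X at 8101063 to 8101275, 906 bp below its lower end and inside CG2258, above 19.8% of the list. Gclm, the modifier subunit of the same enzyme, had none, and its nearest peak lay 79008 bp away. Trxr1, the thioredoxin reductase that flies use to reduce glutathione as well, had none; a peak of lead replicate 3 lay 2957 bp away, inside sdt.

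Among the regulators, foxo was the gene with a peak in the most lead libraries. It encodes a forkhead transcription factor that acts when insulin signalling is low and turns on stress defence genes. Its peak lay on 3R at 14062503 to 14062797, from 5.56 to 5.85 kb above the lower end of a gene that spans 31034 bp. Peaks covered 293, 234 and 260 bases in lead replicates 1, 2 and 3, and 0, 268 and 0 bases in control replicates 1, 2 and 3. All 3 lead libraries and 1 of 3 control libraries had it, and control replicate 2 lay within the range of the lead libraries. Mean coverage was 262 bases in lead and 89.3 bases in control libraries (exact permutation p = 0.3, Fisher's exact p = 0.4, adjusted p = 1 for both), and 0.129% of all genes (23) had the same split. The 4 peaks shared 224 bp and stood above 86.4%, 47.6% and 80.8% of the lists of lead replicates 1, 2 and 3 and above 54.1% of that of control replicate 2. It was the 1 peak at any of the 51 genes in lead replicate 2.

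The antioxidant regulators cnc and Keap1 had a peak in 1 library and in none. The gene cnc spans 41132 bp and had a peak in control replicate 1 alone, on 3R at 23220369 to 23220612, above 1.09% of the peaks of that list. A region 1574 bp above cnc, at 23228285 to 23228679 inside CG4467, had a peak in all 3 lead and all 3 control libraries. Keap1 had no peak within 1 kb; a region 3058 bp above it, inside kuk, was marked in all lead libraries and in control replicates 1 and 2.

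Widening the view to 5 kb, 15 further regions lay beyond 1 kb of these genes, and 5 of them had a peak in all 6 libraries: 2 below Cat and 1 each above ZnT77C, Ccs and cnc. Of the 9 regions within 1 kb, 1 did, the one below DJ-1alpha, and of all 4538 merged regions 19.6%. A total of 8 genes had their nearest peak between 1 and 5 kb (Zip42C.2, Ccs, Fer3HCH, Sod1, Cat, Prx3, Trxr1 and Keap1), where 12.0% of all genes did, and 34 genes had none within 5 kb, where 75.8% of all genes had none. The median distance to the nearest peak was 15.7, 47.2 and 18.2 kb for the 51 genes in lead replicates 1, 2 and 3, where all genes had medians of 20.4, 49.6 and 27.6 kb. In control replicates 1, 2 and 3 it was 38.6, 18.2 and 28.4 kb, where all genes had 39.6, 30.6 and 32.1 kb. The 20 peaks counted at the 51 genes stood above 1.09% to 86.4% of their lists, with a median of 54.1%, and had a median width of 256 bp where all peaks had 288 bp.

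Peaks were also counted at other genes of the same pathways. Of 12 further metal handling genes, 2 had a peak in at least 1 library, as did 2 of 34 further glutathione transferase genes and 6 of 37 further redox genes, where 12.2% of all genes did. GstZ2 and Gss1, a glutathione synthetase gene, had a peak in lead replicates 1 and 3 and in no other library, as Zw and 0.376% of all genes did. Peaks covered 213, 0 and 228 bases at GstZ2 and 240, 0 and 264 bases at Gss1 in lead replicates 1, 2 and 3. The gene sima, which encodes the fly hypoxia-inducible factor and spans 63488 bp, had a peak in all 3 lead and all 3 control libraries. Of the other further transferase and redox genes with a peak, GstS1 had one in 2 lead and 3 control libraries. Both Gss2 and dj-1beta had one in 1 lead and 1 control library. The gene puc had one in 2 lead libraries and 1 control library, and Sesn in 1 lead library and 0 control libraries. In more lead than control libraries a peak was found at 2 of the 12 metal genes, 1 of the 34 transferase genes and 3 of the 37 redox genes (4.34% of all genes), and in fewer lead than control libraries at 0, 1 and 0 (2.27% of all genes).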

How the data were processed

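MeDIP-seq peak lists of 3 lead and 3 control libraries were used, with groups taken from the titles. Trimming by cutadapt and alignment by Bowtie2 (version 2.1.0) on build dm6 are named per the submitters' processing notes; which program called the peaks is not given in the sources used here. The deposited lists pair each library with its own input and give a whole-number score per peak, of no stated meaning, used only to rank peaks within a list or as a filter. A column of the deposited lists holds peak width, another measure, which equals end minus start plus 1, so coordinates are 1-based. Repeated rows (452 to 1563 per list) were dropped.

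Gene spans were read from RefSeq's gene table (assembly Release 6), without strand, exons or sequence; all 51 symbols matched. The planned promoter description was not run. A gene had a peak where at least 1 bp of a peak lay in its span or 1 kb on either side. Merged regions join peaks of all libraries that share at least 1 bp. "Above" and "below" a gene mean toward higher and lower coordinates. Fisher's exact test and the exact permutation test (20 assignments) were adjusted by Benjamini-Hochberg over the 2173 genes with a peak. Counts over the 51 genes carry no p. Every gene with a peak is named, with the nearest peak of other genes where it lay within 5 kb. Further pathway genes were to be named where lead and control libraries differ by 2 or more or all 6 have a peak. The other further genes with a peak are named after their values were seen. The genes, lists and rules were chosen with earlier results of these data known. The functions were tested on simulated occupancy. Computation used scipy 1.17.1, numpy 2.4.6 and pandas 2.3.3 in Python 3.11.15, with matplotlib 3.10.9 for plots.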

Additional observations from a re-analysis of the deposited data

How the results depend on the processing

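Of 74 alternative values, 60 were kept, none reversed and 14 moved. Kept means a difference of the same direction within the spread between libraries, or a count within 1.5 times. Counts have no direction, so only the differences between group means could have reversed. Values with the replicate block could not change. The gene difference without a control library could not either, as each control library had 2 genes. The difference of 1.0 gene without lead replicate 1 counted as kept beside a lead SD of 3.51 genes. The tally is therefore no measure of how firm the differences are. The number of genes with a peak in at least 1 library was 9, and became 5 with a score of at least 47, 5 with equal numbers of peaks (1379 per library) and 17 with 5 kb on either side. Genes with a peak in all 6 libraries numbered 5 with 5 kb on either side and 1 with merged regions, which were added after the data were seen; without each library in turn they ranged from 0 to 1. Genes with more lead than control libraries numbered 4 with the score limit, 4 with equal numbers, 4 with gene spans alone and 6 with merged regions. Without each library in turn they numbered 4 to 7, by share of each group's libraries. Genes with fewer lead than control libraries numbered 0 with the score limit and 1 with equal numbers. Without each library in turn they numbered 1 to 2, again by share. These settings change the peaks, the windows or the libraries counted, and no cause of the moved counts was tested. With the score limit foxo was marked in 3 lead libraries and in 0 control libraries, with equal numbers in 3 and 1, and with 5 kb on either side in 3 and 2. The score limit was the same for every list, although scores were otherwise compared only within a list. The foxo peak of control replicate 2 (score 43) fell below it, yet stood above 54.1% of its list. That of lead replicate 2 (score 49) passed it and stood above 47.6% of its list. The share of all genes with this split under the score limit is not given here. The difference of 2.67 genes was 1.67 with at least 50% of the peak required in the window, and that of 521.0 bases was 890.7 with 5 kb on either side. As read depth is unknown, no count of missing peaks can be set against it.

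The labels do not say that replicate numbers pair the samples, and equal numbers showed no pairing (correlations of deviations -0.0348, -0.00111 and 0.00406, between -0.0468 and 0.0492 for unequal ones). The replicate block left the differences at 2.67 genes and 521.0 bases, as it must, and counts of genes have no blocked value.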
